A study of Mus musculus with 24 samples.

Results

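The 40 ribosome biogenesis factors described here were taken by gene symbol from an exon count table of 24506 mouse genes. All 40 were found, and all 40 were among the 14550 genes that passed the filter on low counts. By role they fall into 5 classes. The box C/D particle class has 5 genes (Nop56, Nop58, Fbl, Rrp9 and Nolc1), and the box H/ACA class has 3 (Dkc1, Gar1 and Nhp2). The class of RNA polymerase I subunits and nucleolar regulators has 7 (Polr1a, Polr1b, Ncl, Npm1, Mybbp1a, Gnl3 and Ddx21). The small subunit class has 13 (Wdr43, Wdr75, Utp15, Utp20, Heatr1, Rcl1, Nop14, Noc4l, Rrp12, Bysl, Ltv1, Nob1 and Tsr1). The large subunit class has 12 (Bop1, Pes1, Wdr12, Ppan, Nop2, Nop16, Rrs1, Noc2l, Noc3l, Ddx18, Nip7 and Ebna1bp2).

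Ribosomes are assembled in the nucleolus, where RNA polymerase I transcribes the ribosomal RNA precursor. Small nucleolar ribonucleoproteins guide its chemical modification: box C/D particles add methyl groups and box H/ACA particles make pseudouridine. Other factors fold, cut and package the precursor into the small and large subunits. MYC, a transcription factor of growing cells, is known to bind the E-box sequence and to raise the transcription of many of these genes, and the related factor MYCN can act in its place in several tissues.

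The study asked how the transcription factors EBF1 and PAX5, both required for B cell development, act on Myc. RNA came from cultured fetal liver cells of C57BL6/J mice, labelled pro-B, and was counted in 14 libraries that form 7 groups of 2. The groups were Ebf1-KO cells carrying a vector for Ebf1, Ebf1-KO cells carrying a vector for Pax5, Ebf1-KO cells with the empty vector, Pax5-KO cells carrying a vector for Ebf1, Pax5-KO cells carrying a vector for Pax5, Pax5-KO cells with the empty vector, and wild-type cells with the empty vector. OP9 stromal cells served as feeders, with IL-7 and the ligands of KIT and FLT3 at 10 ng/ml each, and all cultures carried the retroviral vector pMiG, so even the wild type was transduced. Below, a knockout named without a vector carried the empty one. The labels do not say that the 2 libraries of a group came from separate cultures, so the p-values reflect the spread between libraries alone, which may be technical.

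Libraries held 16.1 to 42.1 M (mega) exon counts. Ebf1 stood at 244 and 282 CPM in Ebf1-KO, against 966 and 1102 CPM in wild type, and Pax5 stood at 20.1 and 12.3 CPM in Pax5-KO, against 412 and 333 CPM in wild type (CPM, exon counts scaled to a common library size with TMM factors). In Pax5-KO, Ebf1 was also low, at 315 and 241 CPM. The labels do not give the deleted part of either gene, and counts of a vector's own transcript cannot be told apart from the cell's. Of 14 pro-B markers, 12 were detected in every library, but their summed level was 554 to 618 CPM in Ebf1-KO and 1719 to 1741 CPM in Pax5-KO, against 9066 to 9640 CPM in wild type. These markers of the pro-B label were thus lower in sum in both knockouts with the empty vector than in wild type. The 14 include Ebf1 and Pax5, the genes knocked out or carried by the vectors, so the design set part of these sums. Among the others, Il7r had a higher mean in Pax5-KO (324 CPM) than in wild type (298 CPM).

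The 40 factors were lowest in Ebf1-KO cells with Pax5 and highest in Pax5-KO cells with Pax5. The level used here is the mean log2 CPM over the 40 genes. For replicates 1 and 2 it was 6.31 and 6.53 in Ebf1-KO with Ebf1, 5.34 and 5.63 in Ebf1-KO with Pax5, and 5.98 and 6.19 in Ebf1-KO. Pax5-KO cells had 6.05 and 6.43 when given Ebf1, 6.69 and 7.07 when given Pax5, and 6.32 and 6.46 with the empty vector, while wild type had 6.01 and 5.97. Both libraries of Ebf1-KO with Pax5 lay below all other libraries, and both of Pax5-KO with Pax5 lay above all others. The 5 groups between them had means of 5.99 (wild type), 6.08 (Ebf1-KO), 6.24 (Pax5-KO with Ebf1), 6.39 (Pax5-KO) and 6.42 (Ebf1-KO with Ebf1). Neighbours among these 5 differed by less than the pooled SD within groups, 0.186.

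**Figure D1:**
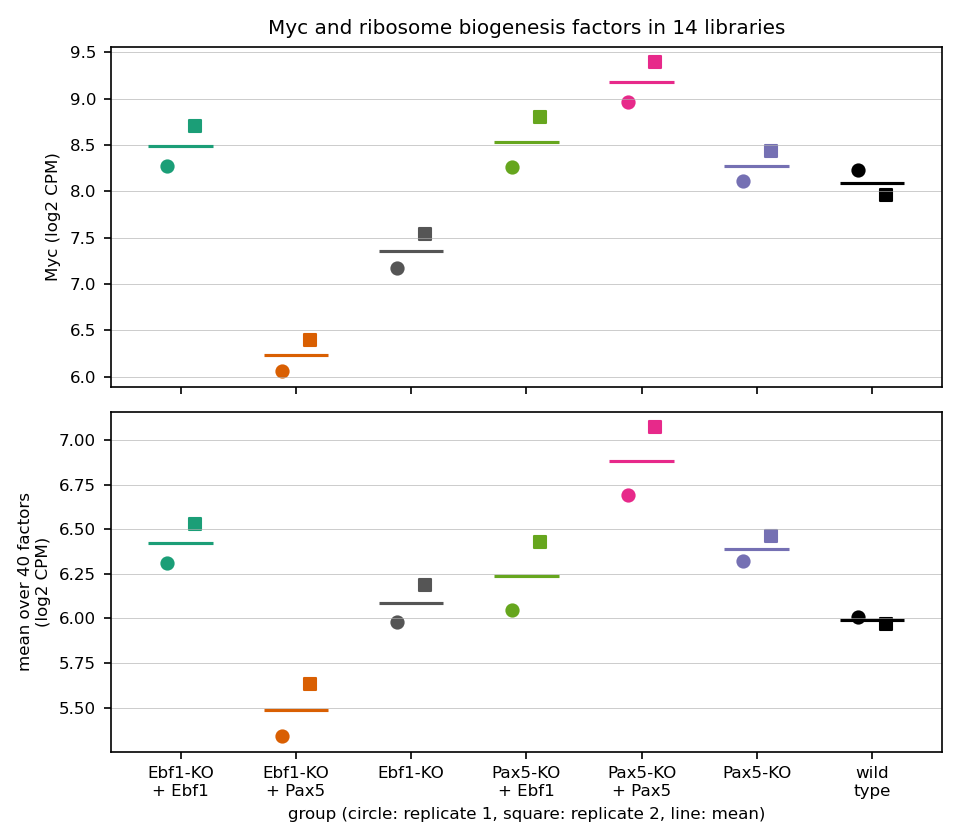
Myc (upper panel) and the mean over the 40 ribosome biogenesis factors (lower panel) in log2 CPM for each of the 14 libraries, by group; circles are replicate 1, squares replicate 2 and lines group means. Both Ebf1-KO with Pax5 libraries are the lowest in both panels (factors 5.34 and 5.63) and both Pax5-KO with Pax5 libraries the highest (factors 6.69 and 7.07).

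The same lowest and highest groups held for most single genes. Of the 40 factors, 34 had their lowest group mean in Ebf1-KO with Pax5, as did 20.45% of all genes tested, and 35 had their highest in Pax5-KO with Pax5, as did 13.84% of all genes tested. The summed level of the 40 ran from 2997 CPM in the first library of Ebf1-KO with Pax5 to 11530 CPM in the second of Pax5-KO with Pax5. Per kilobase of exon, the nucleolar chaperone Npm1 and the nucleolar RNA-binding protein Ncl were the most abundant, at mean levels of 569 and 210 CPM per kb, and the U3 particle protein Rrp9 and the export and processing factor Rrp12 the least, at 9.25 and 5.69 CPM per kb. Single factors spanned a range of 1.97-fold (Nob1) to 8.96-fold (Nop16) between their lowest and highest libraries. Bulk RNA does not separate fewer cells of a type from less RNA per cell.

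**Figure D2:**
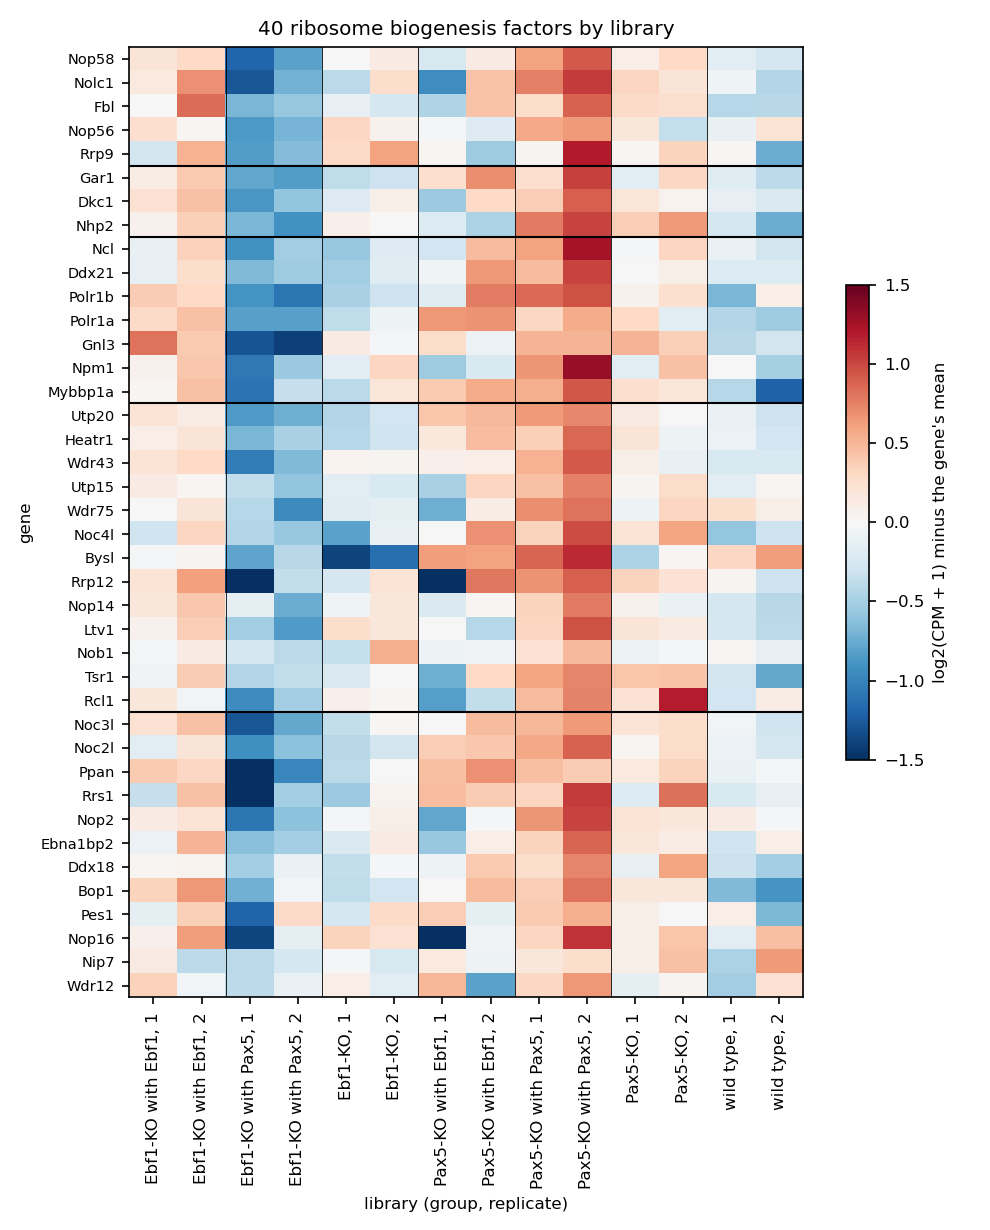
Each of the 40 factors (vertical axis, grouped by class and ordered by correlation with Myc within a class) in each of the 14 libraries (horizontal axis), as log2(CPM + 1) minus the gene's mean over libraries; red is above the mean and blue below. The Ebf1-KO with Pax5 columns are blue for nearly every gene and the Pax5-KO with Pax5 columns red.

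The 20 factors that passed in no comparison between groups are given by their lowest and highest libraries. Among nucleolar proteins, Ncl ran between 854 and 3832 CPM and the helicase Ddx21 ran between 141 and 450.5 CPM. In the box C/D class, Fbl ran between 7.5 and 24.1 CPM and Rrp9 ran between 6.81 and 30.9 CPM. Processome proteins and their partners make up part of the small subunit set: Wdr75 ran between 35.8 and 124 CPM, Utp15 ran between 43.9 and 113 CPM, Nop14 ran between 44 and 129 CPM and Noc4l ran between 33.2 and 117 CPM. Among factors that act late in small subunit maturation, Ltv1 ran between 23.4 and 84.4 CPM, Nob1 ran between 21.8 and 42.8 CPM and Tsr1 ran between 37.9 and 109 CPM. In the same class, Rcl1 ran between 10.6 and 49.1 CPM and Rrp12 ran between 6.85 and 41.5 CPM. In the large subunit class, Pes1 ran between 16.3 and 57.3 CPM, Wdr12 ran between 28.9 and 81 CPM, Nop16 ran between 6.07 and 54.3 CPM and Rrs1 ran between 13.8 and 89.9 CPM. The helicase Ddx18 ran between 24.4 and 59.3 CPM, while Nip7 ran between 23.8 and 52.5 CPM and Ebna1bp2 ran between 44.6 and 128 CPM. For 13 of these 20 the lowest library was one of Ebf1-KO with Pax5, and for 17 the highest was one of Pax5-KO with Pax5.

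With Pax5 in Ebf1-KO cells most factors had lower levels, and 5 passed the test. In edgeR's quasi-likelihood test with Benjamini-Hochberg adjustment over all genes tested (threshold 0.05) 5 of 40 fell and 0 rose. Of all genes tested, 0.935% fell and 3.15% rose. At an unadjusted p under 0.05, 17 of 40 differed, against 2430 of the 14550 genes tested. The median log2 fold change of the 40 was -0.57, against -0.01 for all genes tested. For 30 factors both libraries with Pax5 lay below both without it, against 25.4% of all genes tested. The mean of the 40 differed by -0.64 (replicate 1) and -0.57 (replicate 2) on the log2 scale.

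The 5 factors that fell come from 4 classes. Here and below, the value after ± is the standard error of the log2 fold change. Gnl3, the nucleolar GTPase nucleostemin, had 39.3 and 36.6 CPM in Ebf1-KO with Pax5, against 107 and 96.4 CPM in Ebf1-KO (log2 fold change -1.42 ± 0.21, adjusted p = 0.00125). Nop58, a core protein of box C/D particles, had 89.4 and 118 CPM with Pax5, against 205 and 224 CPM in Ebf1-KO (log2 fold change -1.05 ± 0.21, adjusted p = 0.00905). Its partner in the same particle, Nop56, had 54.5 and 61.4 CPM with Pax5, against 124 and 105 CPM in Ebf1-KO (log2 fold change -0.99 ± 0.23, adjusted p = 0.0239). In none of these 3 did the libraries of the groups overlap. Wdr43, a factor of the small subunit processome, had 67 and 88.3 CPM with Pax5, against 145 and 144 CPM in Ebf1-KO (log2 fold change -0.90 ± 0.20, adjusted p = 0.0205). Ppan, a large subunit factor, had 12.4 and 20.7 CPM with Pax5, against 31.2 and 41.6 CPM in Ebf1-KO (log2 fold change -1.14 ± 0.28, adjusted p = 0.0363). Myc itself had 66.8 and 84.3 CPM with Pax5, against 143 and 187 CPM in Ebf1-KO (log2 fold change -1.13 ± 0.25, adjusted p = 0.0209). Mycn had 63.0 and 64.6 CPM with Pax5, against 176 and 238 CPM in Ebf1-KO. It fell as well (log2 fold change -1.70 ± 0.40, adjusted p = 0.0266).

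By DESeq2 1 factor rose and 10 fell, against 6.35 and 2.95% of the genes it tested. With edgeR, leaving out any 1 library of either group lowered the count of 5, and fewer of all genes tested passed as well. The median log2 fold change of the factors ranged from -0.76 to -0.42 in those fits. The Myc call was lost without either library of Ebf1-KO with Pax5 or without replicate 2 of Ebf1-KO (adjusted p = 0.161, 0.0502 and 0.182). Marker sums of other cells also differed in this comparison. Natural killer and innate lymphoid markers summed to 414 and 459 CPM in Ebf1-KO with Pax5, against 237 and 300.5 CPM in Ebf1-KO, and stroma markers to 45.2 and 63.8 CPM, against 7.41 and 9.5 CPM, most of it Sparc. Of the 9 innate lymphoid markers 3 were detected in every library, and of the 8 stroma markers 0, with Col3a1 and Vcam1 at 0 in 13 of 14 libraries. Myeloid markers summed to 648 and 592 CPM, against 568 and 515 CPM in Ebf1-KO, while Tyrobp and Cebpa had lower means with Pax5. The part of these markers in the result was not tested.

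**Figure D3:**
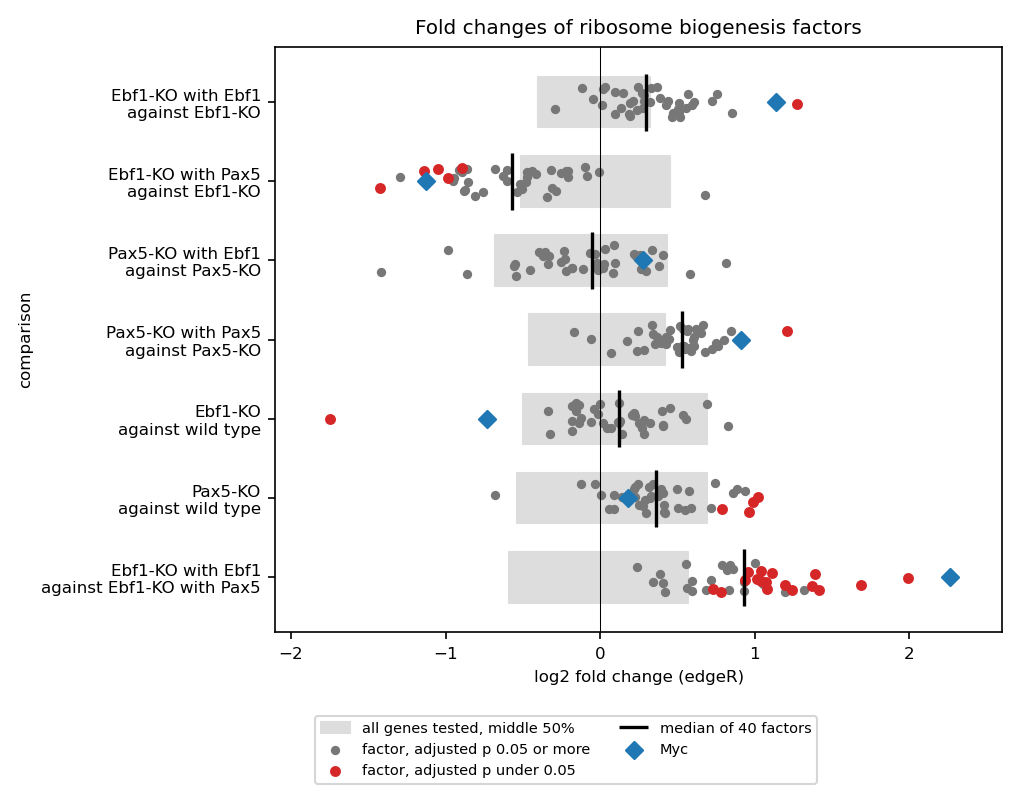
Log2 fold changes (horizontal axis) of the 40 factors in the 7 comparisons between groups (vertical axis); red points passed an adjusted p of 0.05, black bars are the medians of the 40, blue diamonds are Myc and grey boxes span the middle 50% of all genes tested. The median bar is at -0.57 for Pax5 in Ebf1-KO, at 0.53 for Pax5 in Pax5-KO and at 0.93 for Ebf1 against Pax5 in Ebf1-KO.

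Between the vectors in Ebf1-KO cells the factors differed most: 17 of 40 were higher with Ebf1 than with Pax5 and 0 lower, against 4.74 and 5.46% of all genes tested. Their median log2 fold change was 0.93, against 0.02 for all genes tested. For 38 factors both libraries with Ebf1 lay above both with Pax5, against 29.6% of all genes tested. Counts by class were 3 of 5 box C/D, 3 of 3 box H/ACA, 4 of 7 polymerase I and nucleolar, 3 of 13 small subunit and 4 of 12 large subunit factors.

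In the box C/D class the factors called were Nop56, Nop58 and Nolc1, a chaperone of nucleolar particles. Nop56 had 119.6 and 102 CPM with Ebf1 and 54.5 and 61.4 CPM with Pax5 (log2 fold change 0.94 ± 0.23, adjusted p = 0.0154). Nop58 had 236 and 254 CPM with Ebf1 and 89.4 and 118 CPM with Pax5 (log2 fold change 1.24 ± 0.21, adjusted p = 0.00133). Nolc1 had 134 and 196 CPM with Ebf1 and 49.3 and 74.4 CPM with Pax5 (log2 fold change 1.42 ± 0.38, adjusted p = 0.0264). The libraries with the 2 vectors did not overlap for any of these. The methyltransferase of the particle, Fbl, had 12.6 and 23.4 CPM with Ebf1 and 7.5 and 8.22 CPM with Pax5 and did not pass. All 3 box H/ACA proteins passed. The pseudouridine synthase Dkc1 had 225 and 262 CPM with Ebf1 and 104 and 127 CPM with Pax5 (log2 fold change 1.07 ± 0.26, adjusted p = 0.0175). Gar1 had 98.4 and 119 CPM with Ebf1 and 52.4 and 50.5 CPM with Pax5 (log2 fold change 1.08 ± 0.27, adjusted p = 0.0187), and Nhp2 had 48.1 and 59.1 CPM with Ebf1 and 28.2 and 23.9 CPM with Pax5 (log2 fold change 1.04 ± 0.26, adjusted p = 0.0193).

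The 2 largest subunits of RNA polymerase I were both higher with Ebf1. Polr1a had 156 and 174 CPM with Ebf1 and 71.9 and 72.2 CPM with Pax5 (log2 fold change 1.19 ± 0.21, adjusted p = 0.00183). Polr1b had 46.1 and 43.7 CPM with Ebf1 and 18.4 and 15.9 CPM with Pax5 (log2 fold change 1.39 ± 0.34, adjusted p = 0.0179). Gnl3 showed the largest difference of the 40, with 173 and 129 CPM with Ebf1 and 39.3 and 36.6 CPM with Pax5 (log2 fold change 1.99 ± 0.22, adjusted p = 3.59e-05). Npm1 had 751 and 948 CPM with Ebf1 and 340.0 and 486 CPM with Pax5 (log2 fold change 1.04 ± 0.29, adjusted p = 0.0349). Ncl had 1491 and 2047 CPM with Ebf1 and 854 and 1117 CPM with Pax5 and did not pass (adjusted p = 0.0809).

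Among small subunit factors, Wdr43 had 162 and 173 CPM with Ebf1 and 67 and 88.3 CPM with Pax5 (log2 fold change 1.11 ± 0.20, adjusted p = 0.00246). Utp20 had 146 and 138 CPM with Ebf1 and 70.0 and 75.8 CPM with Pax5 (log2 fold change 0.96 ± 0.18, adjusted p = 0.00314). Heatr1 had 159 and 168 CPM with Ebf1 and 91.8 and 105 CPM with Pax5 (log2 fold change 0.73 ± 0.21, adjusted p = 0.0424). These 3 belong to the small subunit processome, and in each the libraries were apart. Among large subunit factors, Ppan had 55 and 52 CPM with Ebf1 and 12.4 and 20.7 CPM with Pax5 (log2 fold change 1.69 ± 0.29, adjusted p = 0.00151). Noc3l had 54.3 and 63.1 CPM with Ebf1 and 18.4 and 26.9 CPM with Pax5 (log2 fold change 1.37 ± 0.28, adjusted p = 0.00547). Its relative Noc2l had 173 and 223 CPM with Ebf1 and 103 and 128 CPM with Pax5 (log2 fold change 0.78 ± 0.20, adjusted p = 0.0233). Nop2, a methyltransferase of the large subunit RNA, had 73.2 and 77.6 CPM with Ebf1 and 31.2 and 43.5 CPM with Pax5 (log2 fold change 1.01 ± 0.27, adjusted p = 0.0248). The 3 proteins of the PeBoW complex did not pass: Bop1 had 57.2 and 71.8 CPM with Ebf1 and 27.1 and 43.9 CPM with Pax5, Pes1 had 35.5 and 50.2 CPM with Ebf1 and 16.3 and 47.8 CPM with Pax5 and Wdr12 had 65.1 and 49.8 CPM with Ebf1 and 38.9 and 47.7 CPM with Pax5.

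Leaving out any 1 library of either group lowered the count of 17, and fewer of all genes tested passed as well. The median log2 fold change of the factors ranged from 0.7 to 1.1 in those fits. Nop58, Ppan, Polr1a, Utp20, Gnl3 and Wdr43 were called in all 4 of these fits. Scaling by library totals only gave 10 factors, against 3.47% of all genes tested. The same marker sums as above differed here: innate lymphoid markers were at 112 and 85.2 CPM with Ebf1 and 414 and 459 CPM with Pax5, and myeloid markers at 282 and 249 CPM with Ebf1 and 648 and 592 CPM with Pax5. Of the innate lymphoid markers only Gzma had a higher mean with Ebf1 (55.45 CPM) than with Pax5 (2.0 CPM). Of the myeloid markers Elane and Ctsg did so. The part of these markers in the result was not tested.

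Set against Ebf1-KO, 1 factor passed with Ebf1 in the same cells. Of the 40, 1 factor, Bysl, rose and 0 fell, against 2.21% of all genes tested that rose and 0.763% that fell. At an unadjusted p under 0.05, 8 of 40 differed, against 1615 of the 14550 genes tested. By DESeq2 1 rose and 0 fell, against 3.23 and 2.02% of its genes. Over the 40, the median log2 fold change was 0.30, against 0.00 for all genes tested, and 21 of 40 had both libraries above both of Ebf1-KO, against 24.0% of all genes tested. The mean of the 40 differed by 0.33 in replicate 1 and 0.34 in replicate 2. Myc rose, with 308 and 418 CPM in Ebf1-KO with Ebf1, against 143 and 187 CPM in Ebf1-KO (log2 fold change 1.14 ± 0.25, adjusted p = 0.0214). That call was lost without replicate 2 of Ebf1-KO with Ebf1 and without either Ebf1-KO library (adjusted p = 0.302, 0.307 and 0.0514). Mycn fell, with 34.1 and 48.2 CPM in Ebf1-KO with Ebf1, against 176 and 238 CPM in Ebf1-KO. Its log2 fold change was -2.33 ± 0.41 (adjusted p = 0.00389). Summed, Myc and Mycn had 342 and 466 CPM with Ebf1, against 319 and 425 CPM in Ebf1-KO. Pro-B markers summed to 3135 and 3230 CPM in Ebf1-KO with Ebf1, against 554 and 618 CPM in Ebf1-KO. This sum includes Ebf1 itself, with means of 875 and 263 CPM. Myeloid markers summed to 282 and 249 CPM, against 568 and 515 CPM, and innate lymphoid markers to 112 and 85.2 CPM, against 237 and 300.5 CPM. Within the innate lymphoid sum Gzma went the other way, with a mean of 55.45 CPM with Ebf1, against 1.16 CPM in Ebf1-KO. Every other marker of that list had a lower mean with Ebf1. The largest myeloid falls were in Tyrobp (mean 94.0 CPM with Ebf1, against 273 CPM) and Itgam (24.0 CPM, against 92.1 CPM). Means of the myeloid markers Csf1r, Csf3r, Elane and Ctsg were higher with Ebf1. The part of these markers in the result was not tested.

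Bysl, a factor of small subunit maturation, had 192 and 202 CPM in Ebf1-KO with Ebf1, against 74.5 and 88.8 CPM in Ebf1-KO (log2 fold change 1.27 ± 0.22, adjusted p = 0.0038). The call was lost without replicate 1 of Ebf1-KO (adjusted p = 0.0945). Bysl overlaps the cyclin gene Ccnd3 on the opposite strand by 358 bases, and the strand setting of the counting is not given. The log2 CPM of both genes correlated at r = 0.98 over the 14 libraries, so the Bysl values are uncertain. In all, 14 of the 40 factors overlap another gene body, several of them as hosts of small nucleolar RNAs that lie within them.

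In Pax5-KO cells most factors had higher levels with the Pax5 vector, but 1 passed the test. Bysl rose and 0 fell, against 1.64% of all genes tested that rose and 2.4% that fell. At an unadjusted p under 0.05, 15 of 40 differed, against 2140 of the 14550 genes tested. By DESeq2 3 rose and 0 fell, against 3.07 and 5.32% of its genes. The median log2 fold change was 0.53, against 0.01 for all genes tested. For 30 factors both libraries with Pax5 lay above both of Pax5-KO and for 0 below, against 23.5 and 23.7% of all genes tested. The mean of the 40 differed by 0.37 in replicate 1 and 0.61 in replicate 2, and 37 of 40 were higher within both numbers. With a replicate block more factors rose, as counted in the closing section. Bysl had 361 and 429 CPM in Pax5-KO with Pax5, against 141 and 200.0 CPM in Pax5-KO (log2 fold change 1.21 ± 0.22, adjusted p = 0.0048), with the limit given above. The Bysl call was lost without replicate 2 of Pax5-KO with Pax5 or replicate 1 of Pax5-KO (adjusted p = 0.0957 and 0.0711). Myc had 499 and 670.1 CPM with Pax5, against 277 and 344 CPM in Pax5-KO, and did not pass (log2 fold change 0.91 ± 0.25, adjusted p = 0.06). Mycn had 18.3 and 13.4 CPM with Pax5, against 43.2 and 28.7 CPM in Pax5-KO. It did not pass either (log2 fold change -1.18 ± 0.40, adjusted p = 0.137). Pro-B markers summed to 5654 and 5868 CPM with Pax5, against 1719 and 1741 CPM in Pax5-KO. This sum includes Pax5 itself, with means of 593 and 16.2 CPM, while Il7r and Vpreb2 had lower means with Pax5. T lineage markers summed to 128 and 116 CPM with Pax5, against 505 and 581 CPM. The part of these markers in the result was not tested.

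The effect of the Pax5 vector differed between the knockouts. The difference, Pax5-KO minus Ebf1-KO, was tested as an interaction term, and 7 of 40 factors passed with a positive sign and 0 with a negative one, against 0.735 and 2.43% of all genes tested. The median over the 40 was 1.09, against 0.00 for all genes tested, and all 40 estimates were above 0. Nop56 had 148 and 156 CPM in Pax5-KO with Pax5, against 113 and 78 CPM in Pax5-KO (difference of log2 fold changes 1.66 ± 0.32, adjusted p = 0.0106). Wdr43 had 202 and 266 CPM with Pax5, against 149 and 129.6 CPM in Pax5-KO (difference 1.65 ± 0.28, adjusted p = 0.00574). Npm1 had 1131 and 1769 CPM with Pax5, against 640.0 and 974 CPM in Pax5-KO (difference 1.74 ± 0.41, adjusted p = 0.0347). For these 3 the estimate was above 0 in Pax5-KO cells, where none passed alone (adjusted p = 0.132, 0.0511 and 0.151), and below 0 in Ebf1-KO cells. Gnl3 had 140.4 and 139.7 CPM with Pax5, against 140.3 and 126 CPM in Pax5-KO, where its log2 fold change was 0.07, so its difference of 1.5 ± 0.30 came mainly from the Ebf1-KO side. The other factors that passed were Nop58, Nop2 and Utp20, with differences of 1.62, 1.55 and 1.05. Pax5 itself had 746 and 440 CPM in Pax5-KO with Pax5 and 429 and 399 CPM in Ebf1-KO with Pax5. The part of these levels in the result was not tested.

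Myc showed a difference of 2.04 ± 0.36 (adjusted p = 0.00624) and was called in all 8 fits that left out a library. Leaving out any 1 library of the compared groups lowered the count of 7 factors, and fewer of all genes tested passed as well. The median difference of the factors ranged from 0.81 to 1.29 in those fits. Other settings gave counts of 15 (DESeq2), 12 (only the compared groups) and 4 (library totals only), against 2.71, 1.43 and 0.385% of all genes tested.

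**Figure D4:**
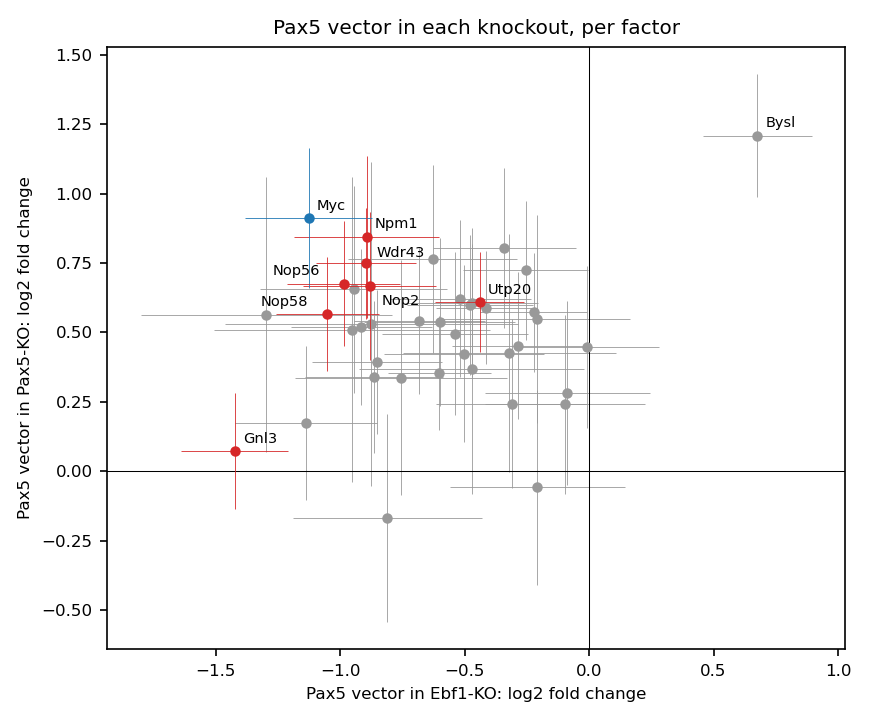
Log2 fold change of each of the 40 factors and of Myc (blue) with the Pax5 vector in Ebf1-KO cells (horizontal axis) and in Pax5-KO cells (vertical axis), with standard errors; red marks the 7 factors whose difference passed. Most points lie left of 0 and above 0, and Bysl lies right of 0.

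Ebf1 in Pax5-KO cells left the factors without a common direction. By edgeR 0 of 40 rose and 0 fell, against 1.75 and 1.85% of all genes tested. At an unadjusted p under 0.05, 4 of 40 differed, against 3005 of the 14550 genes tested. By DESeq2 2 rose and 2 fell, against 5.16 and 6.12% of its genes. The median log2 fold change was -0.05, against -0.04 for all genes tested, and 6 factors had both libraries above and 9 both below those of Pax5-KO, against 17.7 and 24.4% of all genes tested. The 2 libraries with Ebf1 were the least alike of any group (r = 0.895 over log2 CPM of all genes tested). Rrp12 had 6.85 and 38.4 CPM in Pax5-KO with Ebf1, against 27.7 and 25.5 CPM in Pax5-KO. Nop16, a large subunit factor, had 6.07 and 24.3 CPM with Ebf1, against 26.7 and 33.8 CPM in Pax5-KO. Wdr12 had 72.8 and 28.9 CPM with Ebf1, against 46.2 and 52.8 CPM in Pax5-KO. The first library was the low one for Rrp12 and Nop16, and the second for Wdr12. Without the second library 1 factor rose and 6 fell, but calls then rose over the whole table, to 5.39 and 9.08% of all genes tested in that fit. Without replicate 1 of Pax5-KO 1 factor fell, against 1.2% of all genes. Myc had 307 and 445 CPM with Ebf1, against 277 and 344 CPM in Pax5-KO (log2 fold change 0.28 ± 0.25, adjusted p = 0.57). Mycn had 5.11 and 14.3 CPM with Ebf1, against 43.2 and 28.7 CPM in Pax5-KO. It fell (log2 fold change -1.87 ± 0.41, adjusted p = 0.0198). The difference between the Ebf1 effects in the 2 knockouts passed for 0 of 40 factors, against 0.577 and 0.0344% of all genes tested. At an unadjusted p under 0.05, 3 of 40 differed, against 1219 of the 14550 genes tested. By DESeq2 0 of 40 passed, against 1.41 and 0.393% of its genes. The median difference between the Ebf1 effects, Ebf1-KO minus Pax5-KO, was 0.45, against 0.08 for all genes tested, and 38 of 40 estimates were above 0. Ebf1 itself had 857 and 893 CPM in Ebf1-KO with Ebf1 and 1643.5 and 1483 CPM in Pax5-KO with Ebf1. The part of these levels in the result was not tested.

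Without a vector gene, Pax5-KO cells had higher levels than wild type for most factors. By edgeR 4 of 40 were higher and 0 lower, against 8.65 and 5.0% of all genes tested, so the share called, 10.0%, was near that of all genes. Both libraries lay above both of wild type for 29 factors, against 31.1% of all genes tested, and the median log2 fold change was 0.36, against 0.04 for all genes tested. Nhp2 had 59.5 and 71.6 CPM in Pax5-KO, against 37.9 and 26.8 CPM in wild type (log2 fold change 1.02 ± 0.26, adjusted p = 0.0175). Gnl3 had 140.3 and 126 CPM in Pax5-KO, against 73.5 and 80.6 CPM in wild type (log2 fold change 0.79 ± 0.21, adjusted p = 0.0212). Bop1 had 51.1 and 50.9 CPM in Pax5-KO, against 28.3 and 24 CPM in wild type (log2 fold change 0.96 ± 0.29, adjusted p = 0.0428). Mybbp1a, a nucleolar regulator of transcription, had 255 and 242 CPM in Pax5-KO, against 159 and 91.8 CPM in wild type (log2 fold change 0.99 ± 0.31, adjusted p = 0.0445). The groups did not overlap for any of these 4. Leaving out any 1 library of either group lowered the count, and fewer of all genes tested passed as well. The median of the 40 ranged from 0.31 to 0.45 in those fits. T lineage markers summed to 505 and 581 CPM in Pax5-KO, against 36.9 and 20.1 CPM in wild type. Innate lymphoid markers summed to 407 and 460.1 CPM, against 2.49 and 5.84 CPM, and myeloid markers to 373 and 368 CPM, against 26.6 and 26.6 CPM. Their part in the result was not tested.

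In Ebf1-KO cells 1 factor, Bysl, was lower than in wild type and 0 were higher, against 6.65 and 8.02% of all genes tested. Bysl had 74.5 and 88.8 CPM in Ebf1-KO, against 244 and 304 CPM in wild type (log2 fold change -1.75 ± 0.22, adjusted p = 6.11e-05), and Ccnd3 had 126 and 171 CPM, against 547 and 579 CPM. Both libraries lay above both of wild type for 12 factors and below for 5, against 32.3 and 27.2% of all genes tested, and the median of the 40 was 0.12, against 0.03 for all genes tested. Myc did not pass, with 143 and 187 CPM in Ebf1-KO, against 299 and 248 CPM in wild type (log2 fold change -0.73 ± 0.25, adjusted p = 0.0681). Mycn rose, with 176 and 238 CPM in Ebf1-KO, against 29.3 and 20.9 CPM in wild type (log2 fold change 3.04 ± 0.42, adjusted p = 0.00012).

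Over the 14 libraries the level of the factors followed Myc mRNA. Pearson's r of the mean log2 CPM with Myc was 0.923 and Spearman's rho 0.916, with a slope of 0.43 log2 units per log2 unit of Myc. These are descriptions: the 14 points share groups, and both measures come from the same library and its scaling. Within replicate number 1, r was 0.918 (n = 7), and within number 2 it was 0.930 (n = 7). Replicate 2 minus replicate 1 within groups gave an r of 0.887 between the factors and Myc (n = 7). Without the 2 libraries farthest from the median Myc level, both of Ebf1-KO with Pax5, r was 0.84, and without both groups with the Pax5 vector, a choice made after seeing the data, it was 0.683 (n = 10). The share of reads on exons ran from 28.5 to 65.4% between libraries. It had an r of 0.441 with the factors and 0.281 with Myc. In every knockout group replicate 2 had the higher exon share, the higher Myc and the higher level of the factors. In wild type replicate 2 had the lower of each, with a share of 28.5%, against 36.7%. The r of 0.887 between replicates therefore cannot separate Myc from this share, whose part in the relation was not tested.

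**Figure D5:**
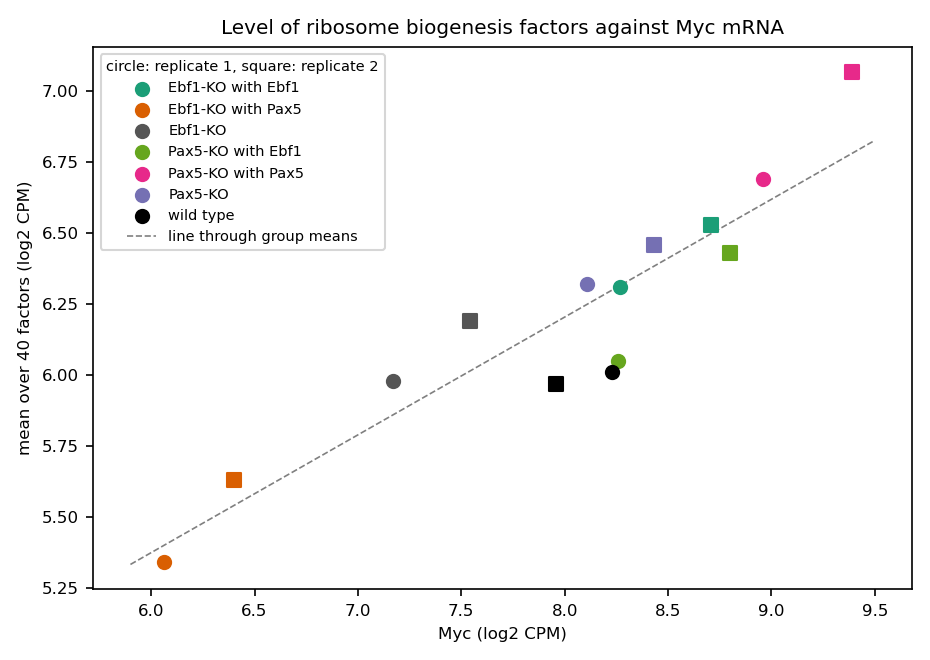
Mean log2 CPM of the 40 factors (vertical axis) against log2 CPM of Myc (horizontal axis) in the 14 libraries, coloured by group; the dashed line runs through the group means. Wild type lies below the line (mean distance -0.25) and Ebf1-KO above it (0.15).

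In log2 units the mean distance was 0.19 for Pax5-KO cells given Pax5, -0.19 for Pax5-KO cells given Ebf1, 0.15 for Ebf1-KO and -0.25 for wild type. Both libraries lay above the line in Ebf1-KO, in Pax5-KO (mean distance 0.07) and in Pax5-KO given Pax5. Both lay below it in wild type and in Pax5-KO given Ebf1. Ebf1-KO had the most Mycn of the 7 groups, and Mycn alone had an r of -0.359 with the factors. Pax5-KO given Pax5, also above the line, had 18.3 and 13.4 CPM of Mycn. The part of Mycn in these distances was not tested. With Myc and Mycn summed, again chosen after seeing the data, r was 0.945.

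Single factors differed in how closely they tracked Myc. The median r of the 40 was 0.766, and 26 of 40 (65.0%) had an r above 0.7, against 5.114% of all genes tested. The highest were Noc3l (0.96), Noc2l (0.94) and the processome scaffold Utp20 (0.94). The lowest were Wdr12 (0.31), Nip7 (0.41), a large subunit factor, and Nop16 (0.46). Nip7 had 25 and 27.7 CPM in Ebf1-KO with Pax5 and 37.8 and 40.2 CPM in Pax5-KO with Pax5, against 23.8 and 52.5 CPM in wild type, where its highest and lowest libraries both lay. By class, r of the class mean with Myc was 0.931 for polymerase I and nucleolar factors, 0.916 for small subunit, 0.904 for large subunit, 0.892 for box H/ACA and 0.841 for box C/D factors. Factors also tracked each other, with a mean pairwise r of 0.65, against 0.0074 over all genes tested.

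The E-box CACGTG, which MYC is known to bind and which reads the same on both strands, was looked for in the promoters. Promoters were RefSeq windows (GRCm38.p6) from 250 bases before to 50 after each gene's start, and 35 of 40 factors matched. Fbl, Npm1, Bop1, Rrp12 and Rrs1 had no entry. The E-box stood in 7 of 35 (20.0%), against 11.2% of the genes tested that have a window. The 7 sites are given because their genes differ in how closely they tracked Myc; capitals mark the E-box, and each runs 5′ to 3′ along the gene's strand.
Pes1: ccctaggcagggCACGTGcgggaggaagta
Wdr43: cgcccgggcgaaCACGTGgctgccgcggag
Utp20: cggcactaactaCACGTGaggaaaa
Mybbp1a: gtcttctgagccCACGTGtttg
Nop2: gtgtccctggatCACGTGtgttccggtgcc
Ltv1: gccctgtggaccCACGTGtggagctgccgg
Tsr1: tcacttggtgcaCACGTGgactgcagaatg

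Counting the start base as 0, the E-box began at 2 in Pes1, 17 in Wdr43, 37 in Utp20, 40 in Mybbp1a, 28 in Ltv1, 24 in Tsr1 and -60 in Nop2. So 6 of 7 lay just inside the transcribed part and that of Nop2 before it. Utp20 (r with Myc 0.94) and Wdr43 (0.87) were among the factors closest to Myc, while Pes1 (0.58) and Tsr1 (0.62) were not, and Noc3l, the closest, had no E-box in its window. For Nop2 the 150 bases before the start, at chr6:125131733-125131882 on the plus strand, were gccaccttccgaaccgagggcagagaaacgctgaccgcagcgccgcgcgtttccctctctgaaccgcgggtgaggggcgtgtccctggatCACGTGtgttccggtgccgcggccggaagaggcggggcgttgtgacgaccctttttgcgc. A match describes the letters and is no measure of binding. With the related motif CACGCG, on either strand, also allowed, 16 of 35 factors (45.7%) held either, against 27.6% of the genes tested. The 119 further ribosome biogenesis genes described below, 96 of them with a window, were close to the 40 factors, with 17.7% for CACGTG and 45.8% for either motif.

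EBF1 binding was given as 1 list of 17230 peaks from the pre-B line 230-238. Of the 40 factors, 12 (30.0%) had a peak within 1000 bases of the start, against 28.2% of all genes tested, so the factors were near the background. Among them were Ncl, with a peak across its start at chr1:86359158-86359478 (mm10), Mybbp1a, at chr11:72440914-72441234, and Wdr43, at chr17:71616283-71616603. By the findPeaks score, which is the authors' own, the highest of the 12 was at Utp15, with a score of 53.0. In the stronger part of the list, above the median score, 2 factors (5.0%) kept a peak, against 12% of all genes tested.

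A list of 119 further ribosome biogenesis genes, all tested, had 0 that rose and 7 (5.88%) that fell with Pax5 in Ebf1-KO, against 3.15 and 0.935% of all genes tested. Between Ebf1 and Pax5 in those cells 16 (13.4%) were higher and 1 (0.84%) lower, against 4.74 and 5.46%. The difference between the Pax5 effects passed for 6 (5.04%), against 0.735%. Against wild type, 4 (3.36%) were higher in Ebf1-KO and 3 (2.52%) in Pax5-KO, shares below the 8.02 and 8.65% of all genes tested. With Ebf1 in Pax5-KO 1 fell (0.84%), against 1.85% of all genes tested. With Ebf1 in Ebf1-KO or Pax5 in Pax5-KO 0 passed. At an unadjusted p under 0.05, 8 and 16 of the 119 differed there. Over the 14550 genes tested 1615 and 2140 did, a larger share in both cases. Nat10, an acetyltransferase of ribosomal RNA, had 18.8 and 18.2 CPM in Ebf1-KO with Pax5, against 42.7 and 34.7 CPM in Ebf1-KO (log2 fold change -1.06 ± 0.25, adjusted p = 0.0288). Nop10, the fourth protein of box H/ACA particles, had 37.0 and 32.0 CPM with Pax5, against 78.4 and 67.3 CPM in Ebf1-KO (log2 fold change -1.08 ± 0.23, adjusted p = 0.0143). The other 5 that fell were Utp3, Exosc2, Brix1, Rsl1d1 and Mphosph10. The list's median r with Myc was 0.448, against 0.766 for the 40 factors, and 31 of 119 (26.1%) had an r above 0.7, against 5.114% of all genes tested. The list's mean log2 CPM had an r of 0.819 with Myc, against 0.923 for the mean of the 40 factors, and of 0.961 with that mean.

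Outside both lists, the genes whose log2 CPM was most like the mean of the 40 over the 14 libraries were Hspa8 (r = 0.973), Hspd1 (0.972), Gemin5 (0.960), Shmt1 (0.954) and Nsun2 (0.952). Hspa8 and Hspd1 are chaperones, Gemin5 acts in spliceosomal RNA assembly, Shmt1 in one-carbon metabolism, and Nsun2 methylates RNA. Myc ranked 26 among the 14510 genes tested that are not among the 40.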

How the data were processed

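Whole-number exon counts per gene were deposited by the authors for 14 RNA libraries, made with HOMER on the mouse build mm10 without normalization, per the file headers. The submitters' processing notes also name STAR 2.6.0b-1, HOMER 4.8 and DESeq2, with no roles, and the strand setting is not given in the sources used here. The EBF1 peaks were deposited as 1 list with the authors' findPeaks score, per the file headers. The list's build is mm10. Promoter windows came from RefSeq (GRCm38.p6) and were matched by symbol. The contact profiles of the series (7 samples) were not used here.

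Libraries were assigned by the column names. The Pax5-KO column with no replicate number was taken as replicate 1. A tag in the names parts the libraries by replicate number, and the headers do not say what it marks, so values are also given within each number. No column of per-sample values was left unused.

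Genes were filtered with filterByExpr, scaled by TMM and tested with edgeR 4.0.16 (quasi-likelihood test, R 4.3.3, limma 3.58.1) in 1 fit over all 7 groups without a replicate block. P-values were adjusted by Benjamini-Hochberg over all 14550 genes tested, with a threshold of 0.05. Fold changes are log2 with a standard error, and a prior count of 2 was added for log2 CPM. The method was tested on simulated counts. Their dispersion, the relative variance beyond counting, was set lower than the common value of 0.2033 fitted to these data. That test therefore does not measure the power or the false calls here. The alternatives were DESeq2 1.42.0, RLE scaling, library totals only, no filter, only the compared groups, a replicate block and leaving out each library. Correlations used numpy 2.4.6 and scipy 1.17.1.

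Depth was 16.1 to 42.1 M exon counts a library. With 2 libraries a group, the spread between libraries limits precision more than counting does. Genes with processed pseudogenes, such as Npm1, and genes that overlap another gene can share reads. Members, gene lists and tests were chosen with earlier results of these data known, so the lists are not independent evidence. Values are given for members past the threshold in any of the 7 comparisons between groups, for the best known members of each class, for the 3 with the highest and the 3 with the lowest correlation with Myc, for the 2 most and 2 least abundant per length, for Myc and Mycn, and for the 5 genes outside the lists most like the members' mean. Nat10, Nop10 and Ccnd3 were added after their values were seen.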

Additional observations from a re-analysis of the deposited data

Results flagged for a closer look

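The Pax5 vector had different effects in the 2 knockouts for Myc and 7 ribosome biogenesis factors, by the interaction term of edgeR's quasi-likelihood test. The difference in log2 fold change, Pax5-KO minus Ebf1-KO, was 2.04 for Myc (adjusted p = 0.00624). Among box C/D proteins it was 1.66 for Nop56 (adjusted p = 0.0106) and 1.62 for Nop58 (adjusted p = 0.00733). Among nucleolar regulators it was 1.74 for Npm1 (adjusted p = 0.0347) and 1.5 for Gnl3 (adjusted p = 0.0133). Among small subunit factors it was 1.65 for Wdr43 (adjusted p = 0.00574) and 1.05 for Utp20 (adjusted p = 0.0373), and for the large subunit factor Nop2 it was 1.55 (adjusted p = 0.0383). Without replicate 2 of Pax5-KO with Pax5 the 7 factors no longer passed, in a fit with fewer calls over all genes, while Myc still passed. Pax5 itself was not at the same level in the 2 groups with its vector, as given above.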

How the results depend on the processing

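The median log2 fold change of the 40 factors kept its sign when any 1 library was left out, except for Ebf1-KO against wild type (-0.08 to 0.23) and Ebf1 in Pax5-KO (-0.19 to 0.11). It ranged from -0.76 to -0.42 for Pax5 and 0.17 to 0.49 for Ebf1 in Ebf1-KO, 0.70 to 1.10 for Ebf1 against Pax5, 0.26 to 0.72 for Pax5 in Pax5-KO, 0.31 to 0.45 for Pax5-KO against wild type, 0.81 to 1.29 for the difference between Pax5 effects and 0.27 to 0.63 for that between Ebf1 effects. Counts of factors with 1 library left out were 0 to 1 higher for Ebf1 in Ebf1-KO, 1 to 4 lower for Pax5 in Ebf1-KO, 6 to 15 higher for Ebf1 against Pax5, 0 to 1 higher and 0 to 6 lower for Ebf1 in Pax5-KO (the 6 against 9.08% of all genes in that fit), 0 to 1 higher for Pax5 in Pax5-KO, 0 to 2 higher for Pax5-KO against wild type, 0 to 5 for the Pax5 difference and 0 to 3 for the Ebf1 difference. The Myc fold change for Ebf1 in Pax5-KO turned to -0.02 without replicate 2 of Pax5-KO with Ebf1 (adjusted p = 0.99) and was 0.52 without its replicate 1, and the cause was not tested.

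DESeq2 gave 1 higher and 10 lower for Pax5 in Ebf1-KO, 2 and 2 for Ebf1 in Pax5-KO, 3 higher for Pax5 in Pax5-KO, 1 lower for Pax5-KO against wild type and 15 for the Pax5 difference. Over all genes DESeq2 called 6.35 and 2.95%, 5.16 and 6.12%, 3.07%, 7.93% and 2.71% in the same order, each above its share by edgeR. Without the filter the factor counts were 8 lower, 1 and 1, 3 higher and 1 lower, with 1 higher for Ebf1-KO against wild type. Over all genes that setting called 1.61%, 2.99 and 3.58%, 2.03%, 5.21% and 7.74% in the same order. With only the compared groups, counts were 2 higher for Ebf1 and 3 lower for Pax5 in Ebf1-KO, and 12 for the Pax5 difference. The shares over all genes were 3.93, 0.952 and 1.43%. RLE scaling gave 1 higher for Ebf1 in Pax5-KO and 1 lower for Pax5-KO against wild type, against 1.94 and 5.24% of all genes. Scaling by library totals only gave 10 for Ebf1 against Pax5 and 4 for the Pax5 difference, against 3.47 and 0.385% of all genes. It gave r = 0.875 with Myc, and moved the median of all genes for Ebf1 in Pax5-KO to -0.177, against -0.04 with TMM. Without Bysl, left out after seeing the data, counts were 0 for Ebf1 in Ebf1-KO, Pax5 in Pax5-KO and Ebf1-KO against wild type. Directions not named for a setting were left out here, and they are not always 0. In all 6 other settings Gnl3, Nop58 and Nop56 still fell with Pax5 in Ebf1-KO. Likewise, Gnl3, Mybbp1a and Nhp2 were still higher in Pax5-KO than in wild type in all 6. The cause of the moves in these counts was not tested.

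Same-numbered libraries were not treated as pairs, since the headers do not say what the tag in the column names marks. Their deviations from the group means correlated at -0.059 to 0.236 over 21 pairs of groups, with 13 over 0.1. All 13 were between knockout groups, where every pair was positive (0.076 to 0.236), and the mean for wild type was -0.027. Whether the number marks an effect shared by the knockout groups was not tested. With the replicate block, counts were 1 higher for Pax5 in Ebf1-KO, 1 higher and 1 lower for Ebf1 in Pax5-KO, 6 higher for Pax5 in Pax5-KO and 1 lower for Pax5-KO against wild type. Over all genes that setting called 4.48%, 2.63 and 3.02%, 2.2% and 6.78% in the same order. Directions not named were again left out. The block fit still called Gnl3, Nop58 and Nop56 lower with Pax5 in Ebf1-KO. It also still called Gnl3, Mybbp1a and Nhp2 higher in Pax5-KO than in wild type.

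The correlation with Myc was 0.883 to 0.941 with 1 library left out, 0.84 without Ebf1-KO with Pax5 (whose libraries are also the 2 farthest from the median), 0.905 without Pax5-KO with Pax5, 0.683 without both and 0.945 with Mycn added. The stronger EBF1 peaks marked 2 factors, and either E-box motif 16.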
